A study of Mus musculus with 6 samples.

Results

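The Slit, Robo and netrin genes encode a set of axon and neuron guidance cues and the receptors that read them. Of the 10 genes chosen, the secreted ligands Slit1, Slit2, Slit3 and Ntn1 and the receptors Robo1, Robo2, Robo3, Dcc, Unc5c and Neo1, 9 were represented on the array, by 12 of its 22690 probe sets. Robo2 was not analysed here, since no probe set is annotated to it alone. Every probe set whose single gene symbol in the platform annotation was one of these names was taken, whatever its values, which gave 6 ligand and 6 receptor probe sets. The RefSeq gene table lists Slit1 as an older name of Slit3, so the Entrez identifiers, 20562 for the Slit1 probe set and 20564 for the Slit3 probe set, were used to tell them apart.

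Slit proteins are secreted by the floor plate and by some neurons, and act through Robo receptors mostly as repellents. Netrin-1, the product of Ntn1, is made by the floor plate and neural progenitors. It attracts axons through Dcc and repels them where an Unc5 receptor is present. In the hindbrain both systems steer commissural axons across the midline and guide the axons and the cell bodies of cranial motor neurons, among them the facial motor neurons that arise in rhombomere 4.

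The arrays measured total RNA from pooled rhombomere 4 segments of mouse embryos at E10.5, in mid-gestation. Hoxb1 mutant embryos gave 3 pools and wild-type embryos gave 3 pools, each an independent biological replicate according to the submitters and each hybridised to 1 Affymetrix 430A array. The mutant allele, the strain, the sex and the number of embryos in a pool are not stated in the labels. The tissue also held branchial arch around the segment, so the values are averages over neural tube, crest-derived mesenchyme, vessels and blood, and fewer cells of a type cannot be told apart from less RNA per cell.

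Intensities are linear and were scaled by the authors to the same trimmed mean on each array. A log2 difference is the mutant mean minus the wild-type mean of log2(intensity + 16), a scale that compresses changes of dim probe sets. Bacterial control probe sets, which have no target in mouse RNA, had a 95th percentile of 61.5, and this value is used below as the background level. Hoxb1 itself gave intensities of 60.8, 35.3 and 50.0 in mutants and of 341, 378 and 588 in wild type. With mutant values set to the background level, its log2 mean was at least 6.88-fold lower in mutants. Its limma adjusted p was 0.0695 over all probe sets. Over 16 other settings that limma adjusted p ran from 0.0114 to 0.743 and passed 0.05 in 4. The labels do not say whether that probe set lies in the altered part of Hoxb1. Of 10 tissue markers of rhombomere 4 and its neighbours 9 were measured, and 0 of them lay at or below background on all arrays. Their summed intensity was 7797 to 8272 in mutants and 9112 to 9873 in wild type, without overlap. Of all single probe sets, 7.08% lay apart with mutants lower. The sum includes the targeted Hoxb1. Most of it is Crabp1, at 4627 to 5861 in mutants and 5679 to 6464 in wild type, with overlap. At an unadjusted limma p under 0.05, 3 of the 9 were lower in mutants, against 3.75% of all genes by their brightest probe set. They were Hoxb1 itself, Hoxb3 (log2 difference -0.70) and Hoxa3 (-0.40). Signal for 18S ribosomal RNA was far higher on wild-type replicates 2 and 3, whose mean log2 values were 12.1 and 11.3, than on the remaining 4 arrays, at 6.36 to 7.03.

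Promoter sequences are shown for Slit2 and Slit3, paralogous ligands whose probe sets behaved differently between the groups. They come from the RefSeq table of build GRCm38.p6, where 7 of the 10 genes were matched and Slit1, Ntn1 and Dcc were not. Each window runs 5′ to 3′ on the plus strand, which is the strand of both genes, from 250 bases before the gene's start to 50 after it. Slit3 lies at chr11:35121206-35121505 and Slit2 at chr5:47982905-47983204. Capitals mark the GC box, GGGCGG, on either strand.
Slit3: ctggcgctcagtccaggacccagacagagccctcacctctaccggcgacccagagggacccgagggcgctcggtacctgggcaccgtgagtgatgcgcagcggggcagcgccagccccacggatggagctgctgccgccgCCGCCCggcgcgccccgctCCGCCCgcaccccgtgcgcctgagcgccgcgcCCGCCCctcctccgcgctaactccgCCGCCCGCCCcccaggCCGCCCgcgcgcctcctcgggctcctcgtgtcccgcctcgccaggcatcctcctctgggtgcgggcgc
Slit2: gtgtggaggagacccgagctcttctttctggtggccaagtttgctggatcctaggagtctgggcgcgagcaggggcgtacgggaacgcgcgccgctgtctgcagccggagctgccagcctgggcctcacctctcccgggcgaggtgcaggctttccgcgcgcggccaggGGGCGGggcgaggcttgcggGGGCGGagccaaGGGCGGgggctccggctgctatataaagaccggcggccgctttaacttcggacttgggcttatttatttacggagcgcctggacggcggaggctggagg
The Slit3 window held 6 GC boxes, all as CCGCCC on the printed strand, of which those starting at bases 217 and 221 overlap, and the Slit2 window held 3, all as GGGCGG. Their GC contents were 78.3% for Slit3 and 68.0% for Slit2, against a median of 52.7% over 32851 promoters, and CpG dinucleotides numbered 41 in Slit3 and 30 in Slit2. The GC box was present in 35.7% of all promoters. The 7 matched genes, Robo2 among them, had 9 windows. Of these 9, 4 held a GC box, those of Neo1, Robo3, Slit2 and Slit3. The sequence TGATNNAT, bound by Hox proteins together with Pbx, was searched on both strands and found in 0 of the 9 windows, against 8.85% of all promoters. The sequence TGACAG, bound by Meis and Prep, was found in 2 of the 9, both of them alternative starts of Robo2, against 19.2% of all promoters. Neither of these motifs overlaps a GC box in the windows shown, which hold no match of them. A match describes the letters of the window and is not evidence of binding.

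Among the Slit ligands, the probe sets of Slit1 and Slit3 were dimmer on every mutant array than on every wild-type array, while both probe sets of Slit2 overlapped between the groups. Slit1, which in the hindbrain acts with Slit2 in keeping axons and migrating neurons away from the midline, gave 35.6, 72.0 and 36.8 in mutants and 179, 189 and 122 in wild type. The highest mutant array therefore lay below the lowest wild-type array, and 2 of the 3 mutant arrays lay below the background level while all 3 wild-type arrays lay above it. The means were 48.1 ± 20.7 in mutants and 163 ± 36.3 in wild type (SD, n = 3 each), a log2 difference of -1.51 (SE 0.26, 95% interval -2.13 to -0.89). The unadjusted limma p was 0.000754, rank 34 of 22626 probe sets, and the limma adjusted p over all of them was 0.498, which missed the threshold of 0.05. Slit1 stayed lower in mutants under 15 of 15 other settings in which it was tested, by -1.79 to -1.02, and passed the adjusted threshold in 0 of them.

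Slit3, a ligand also made by mesenchyme and vessels, gave 13.9, 53.5 and 60.6 in mutants and 75.0, 189 and 122 in wild type. All 3 mutant arrays lay below the background level, so the signal in mutants has only an upper bound. With values below that level set to it, the log2 means of Slit3 differed by at least 1.96-fold. This bound allows for dim signal and not for the spread between arrays. The means were 42.7 ± 25.2 in mutants and 129 ± 57.5 in wild type (SD, n = 3 each). As measured, the log2 difference was -1.34 (SE 0.44, 95% interval -2.38 to -0.30), with an unadjusted limma p of 0.0188 and a limma adjusted p of 0.833. The value moved with single arrays. Without mutant replicate 1, the dimmest of the 6 for Slit3, the difference was -0.91 with an unadjusted limma p of 0.0413. Without wild-type replicate 2, the brightest, it was -1.05 with an unadjusted limma p of 0.0615, and with the replicate number as a block it was -1.34 with 0.00132. Without wild-type replicates 2 and 3, the arrays of high 18S signal, it was -0.75 with 0.266. With the 18S signal as a covariate it was -0.84 with 0.188. On the remaining wild-type array Slit3 gave 75.0, against at most 60.6 in mutants. Slit1 gave 179 on that same array, and its log2 difference without replicates 2 and 3 was -1.65 with an unadjusted limma p of 0.00790, and with the covariate -1.64 with 0.00519.

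Slit2, a ligand of the floor plate and of motor neurons, gave 839, 751 and 682 in mutants and 808, 646 and 819 in wild type with its brighter probe set, 1424659_at. The groups overlapped, with means of 757 ± 78.5 in mutants and 758 ± 96.8 in wild type, and the log2 difference was 0.0028 (SE 0.15, 95% interval -0.34 to 0.35). The dimmer probe set, 1451430_at, gave 115, 92.7 and 61.8 in mutants and 79.9, 72.2 and 82.0 in wild type. Here too the groups overlapped, with a log2 difference of 0.14 (SE 0.20, 95% interval -0.34 to 0.62), and the mutant arrays spread more widely than the wild-type arrays.

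The change of Slit1 relative to that of Slit2 was compared within arrays. This pair joins the largest difference of the 12 probe sets, that of Slit1, with the one nearest 0, that of Slit2. The log2 ratio of Slit1 to the brighter Slit2 probe set was lower on all 3 mutant arrays than on all 3 wild-type arrays, by -1.51, with a 2-sided exact permutation p of 0.1, which is the smallest value that 3 arrays against 3 allow. On 2 of the 3 mutant arrays Slit1 lay below background, so the size of this ratio is uncertain, and Slit3, below background on all mutant arrays, was not compared in this way. With this choice of pair, the separation of the ratio and its p add no support beyond the Slit1 difference itself. A ratio within an array describes unequal change of the paralogs and does not show that Slit2 was constant.

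**Figure D1:**
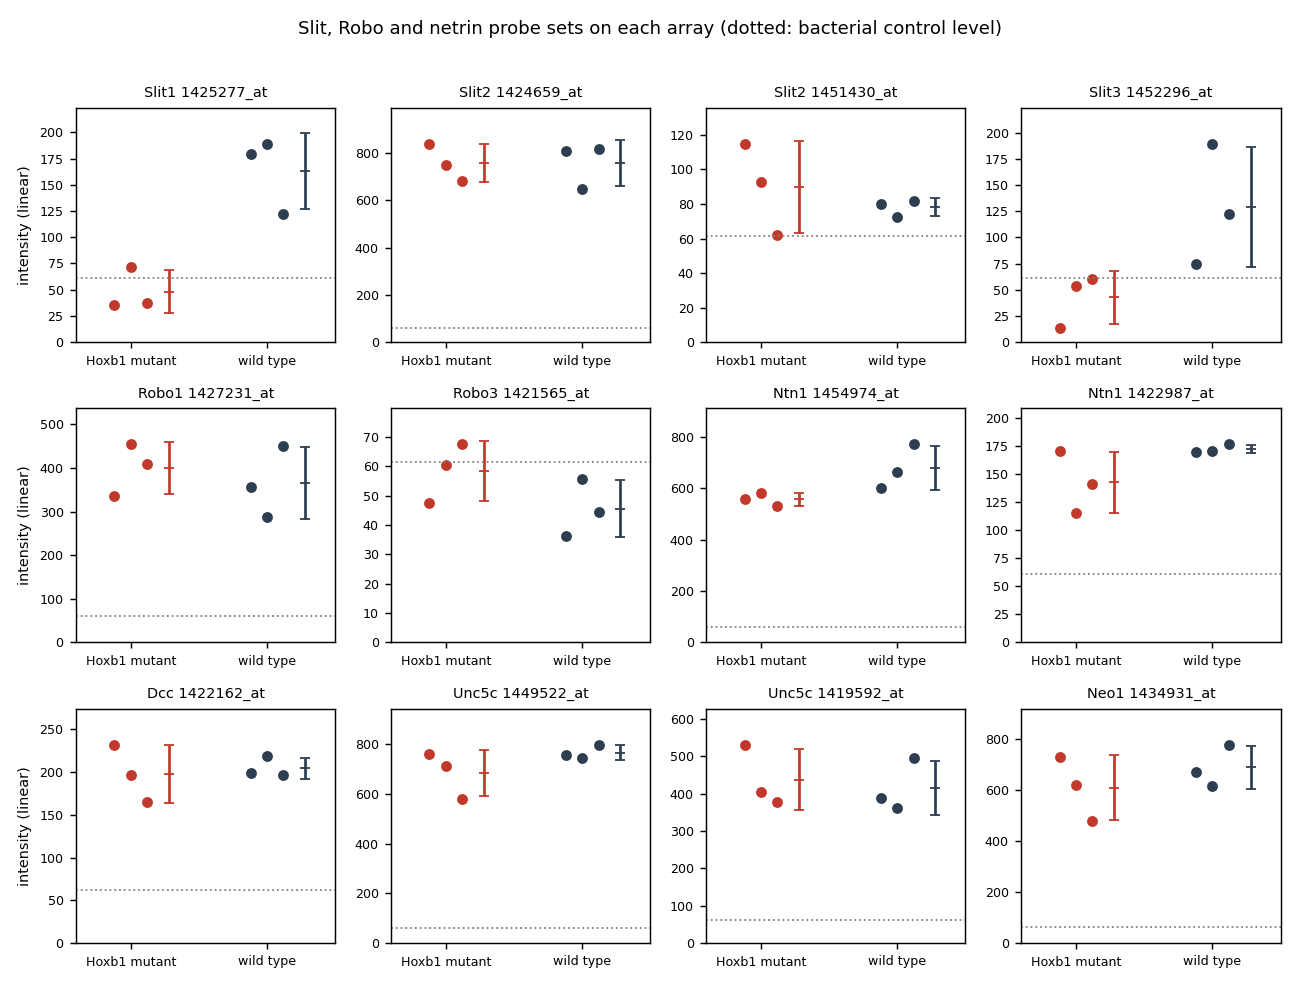
Linear intensity of each of the 12 probe sets on the 6 arrays, Hoxb1 mutant on the left and wild type on the right of each panel. Points are single arrays, bars are mean ± SD of 3 arrays, and the dotted line is the background level of 61.5. Groups are apart for Slit1, Slit3 and the brighter probe set of Ntn1, 1454974_at, and overlap in the other 9 panels.

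The Robo receptors, which carry the Slit signal into the cell, overlapped between the groups. Robo1, the receptor that repels axons once they have crossed the midline and also acts in migrating neurons, gave 335, 455 and 409 in mutants and 357, 288 and 451 in wild type. The means were 399 ± 60.2 in mutants and 365 ± 82.1 in wild type (SD, n = 3 each), with a log2 difference of 0.14 (SE 0.20, 95% interval -0.33 to 0.60). Robo3, which in mammals lets commissural axons approach and cross the midline, gave 47.4, 60.5 and 67.6 in mutants and 36.4, 55.7 and 44.4 in wild type. Of these 6 values 1, on a mutant array, exceeded the background level. Its log2 difference was 0.28 (SE 0.17, 95% interval -0.12 to 0.68), and a change of Robo3 was not resolved so close to background.

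Netrin-1 transcript had a lower mean in mutants with both of its probe sets, and neither reached an unadjusted limma p of 0.05 with the settings used here. The brighter one, 1454974_at, gave 559, 581 and 530.1 in mutants and 599.8, 664 and 772 in wild type. These groups did not overlap, although the lowest wild-type array stood close to the highest mutant array. The log2 difference was -0.27 (SE 0.13, 95% interval -0.58 to 0.04), with an unadjusted limma p of 0.0768 and a limma adjusted p of 0.833. The other probe set, 1422987_at, gave 171, 116 and 141 in mutants and 169.8, 171 and 177 in wild type. There the first mutant array reached wild-type values, and the log2 difference was -0.26 (SE 0.15, 95% interval -0.62 to 0.095). The unadjusted limma p of 1454974_at was 0.0475 without wild-type replicate 1. That of 1422987_at was 0.0265 without mutant replicate 1 and 0.0329 with array weights. Other settings moved these values away from the threshold. With the 18S covariate the log2 difference of 1454974_at was -0.14 (unadjusted limma p 0.478) and that of 1422987_at was -0.22 (0.368). Without both wild-type arrays of high 18S signal the log2 differences were -0.11 for 1454974_at and -0.24 for 1422987_at.

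The netrin receptors overlapped between the groups with each of their probe sets. Dcc, the receptor for netrin attraction, gave 232, 196 and 164 in mutants and 199, 219 and 197 in wild type, a log2 difference of -0.057 (SE 0.15, 95% interval -0.41 to 0.29). Neo1, which encodes the Dcc relative neogenin, a receptor for netrins and for repulsive guidance molecules, gave 731, 618 and 478 in mutants and 670.5, 615 and 778 in wild type. Its log2 difference was -0.19 (SE 0.18, 95% interval -0.62 to 0.25).

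Unc5c, a receptor for netrin repulsion, had probe sets that differed in sign, both within the spread of the arrays. With 1449522_at it gave 761, 712 and 579.5 in mutants and 758, 744 and 799 in wild type, a log2 difference of -0.17 (SE 0.14, 95% interval -0.49 to 0.15). With 1419592_at it gave 531, 405 and 377 in mutants and 388, 360.3 and 496 in wild type, a log2 difference of 0.072 (SE 0.18, 95% interval -0.36 to 0.51). In both, mutant replicate 3 was the lowest mutant array, as it also was for Dcc, Neo1, Ntn1 1454974_at and both Slit2 probe sets. Over the 12 probe sets mutant replicate 3 was the lowest of all 6 arrays 5 times and wild-type replicate 2 was so 3 times, while mutant replicate 1 and wild-type replicate 3 were the highest 4 times each.

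Set side by side, the 4 measured ligand genes had a median log2 difference of -0.81, with a range of -1.51 to 0.0028, and the 5 measured receptor genes had one of -0.057, with a range of -0.19 to 0.28, each gene taken by its brightest probe set. The median over all 12393 genes was -0.02. The ligand median lies between Slit1 and Slit3 on one side and Ntn1 and Slit2 on the other, and so describes neither pair. Among the 6 receptor probe sets the lowest bound of a 95% interval was -0.62, for Neo1, and the highest was 0.68, for Robo3.

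Of the 12 probe sets, 0 passed a limma adjusted p of 0.05, as did 0% of all 22626 probe sets tested, of which 1303, or 5.76%, reached an unadjusted p under 0.05. At an unadjusted p under 0.05, 2 were lower in mutants, those of Slit1 and Slit3, against 3.88% of all probe sets, and 0 were higher, against 1.88%. The split of these shares over all probe sets depended on scaling, at 3.09% lower and 2.89% higher after quantile normalization and 2.50% lower and 2.95% higher after median centring. The count of 2 was the same under both. At an unadjusted p under 0.01 the Slit1 probe set was left, against 0.875% of all probe sets lower in mutants. Groups that did not overlap, with mutants lower, were found for 3 of the 12, against 7.08% of all probe sets. Counts this small are given as a description, and the probe sets of 1 gene share a transcript.

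**Figure D2:**
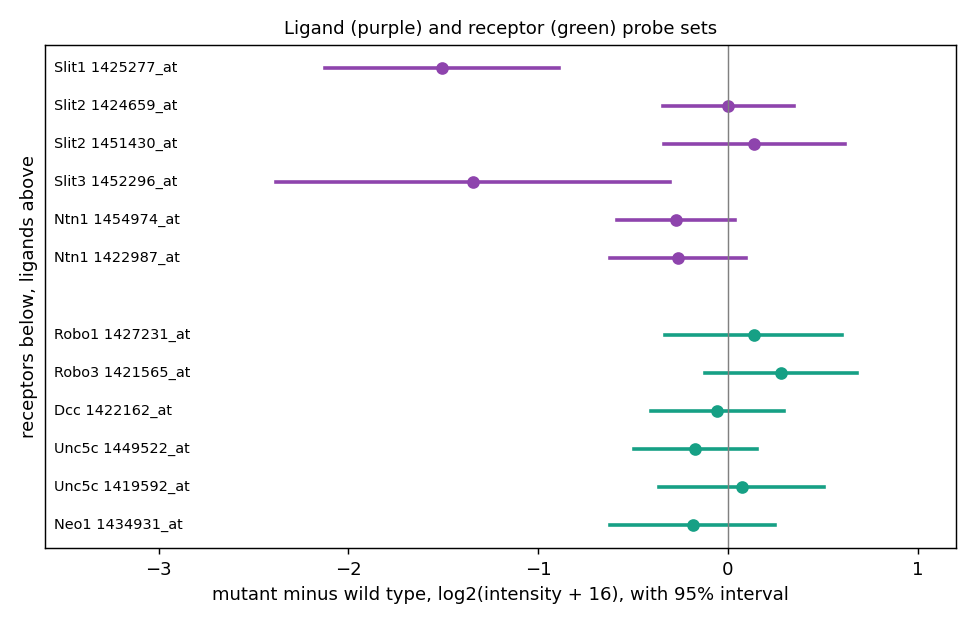
Difference between Hoxb1 mutant and wild type for each probe set, on the log2(intensity + 16) scale, with its 95% interval from the moderated fit over 6 arrays. Ligands are in the upper block and receptors in the lower. The intervals of Slit1 and Slit3 lie below 0, and the other 10 include 0.

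Both lower ligands were dim. The mean log2 signal of Slit1 stood at percentile 31.9 of all probe sets and that of Slit3 at percentile 27.2, so a filter that leaves out the dimmest 33.3% removes both. The highest bacterial control value was 122, close to the lowest wild-type value of Slit1. Each is measured by 1 probe set, so no second probe set bears on either difference.

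**Figure D3:**
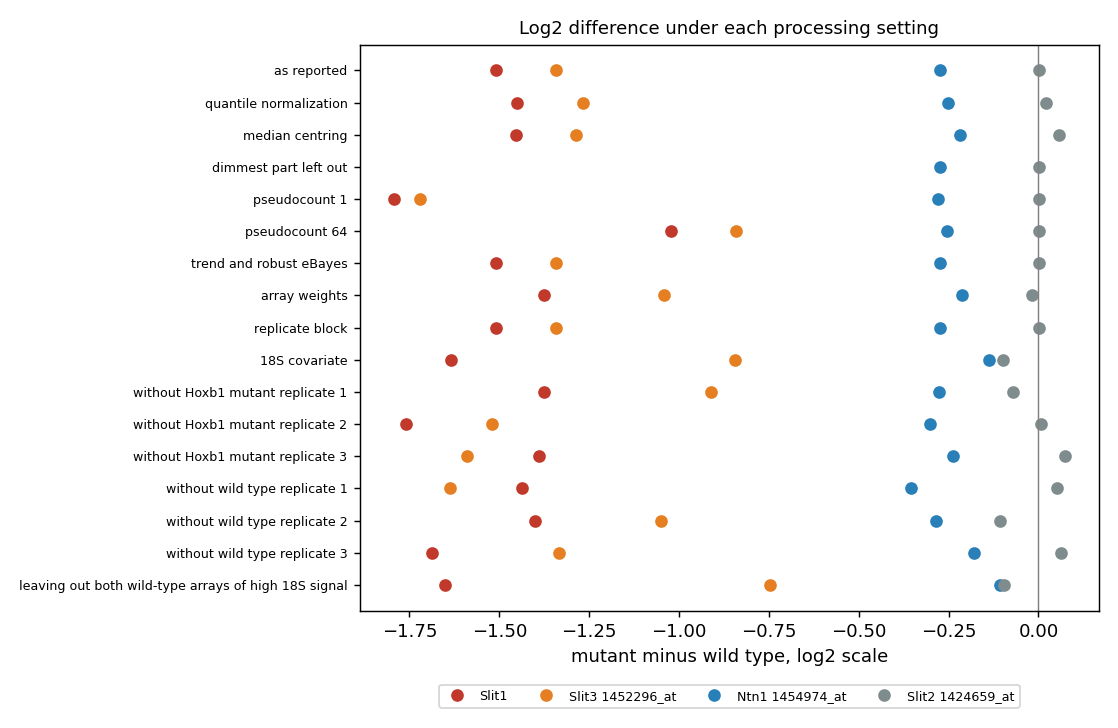
Log2 difference, mutant minus wild type, of Slit1, Slit3, the brighter Ntn1 probe set and the brighter Slit2 probe set under the settings used here and 16 others. Slit1 and Slit3 are absent where the dimmest 33.3% was left out. Slit1 stays between -1.79 and -1.02, Slit3 moves between -1.72 and -0.75, and Slit2 lies near 0 on either side.

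Over all genes by their brightest probe set, 54.5% had a lower mean in mutants, or 43.7% with median centring, and 3.75% were lower at an unadjusted p under 0.05, and the counts of the lists that follow are read beside these shares. Markers of cells that make or receive these cues were measured on the same arrays. Of the floor plate markers 6 of 8 were measured, and their summed intensity ran from 1058 to 1315 in mutants and from 1288 to 1365 in wild type, with overlap. Nkx2-9 and Ferd3l of that list lay at or below background on all arrays, and 0 of the 6 reached an unadjusted p of 0.05. A lower mean in mutants was found for 6 of the 6, with a median log2 difference of -0.12. Of the motor neuron markers 12 of 14 were measured, and their sum ran from 3091 to 3341 in mutants and from 3578 to 3942 in wild type, without overlap. All 12 had a lower mean in mutants, with a median log2 difference of -0.18, 3 reached an unadjusted p under 0.05, and Mnx1 was at background on all arrays.

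Sums over 19 of 20 general neuronal markers overlapped, at 16944 to 21886 in mutants and 20343 to 23960.1 in wild type. Neural progenitor markers, 14 of 15, summed to 22464 to 23419.7 in mutants and 24410.3 to 27299.9 in wild type, and mesenchyme markers, 18 of 21, to 15807 to 16441 in mutants and 16505 to 18706 in wild type, both without overlap, and none of either list lay at background on all arrays. At an unadjusted p under 0.05, 2 of the 19 neuronal, 2 of the 14 progenitor and 0 of the 18 mesenchyme markers were lower in mutants. By direction of the mean alone, 15 of the 19 neuronal, 12 of the 14 progenitor and 13 of the 18 mesenchyme markers were lower. Median log2 differences were -0.21 for neuronal, -0.17 for progenitor and -0.11 for mesenchyme markers. Markers of cranial ganglia and crest, 8 of 12, summed to 3097 to 3274 in mutants and 3424 to 3691 in wild type, without overlap, and 1 of them, Sox10, was lower at an unadjusted p under 0.05, with a log2 difference of -0.40. Sums of endothelial, erythroid, muscle and macrophage markers overlapped, with 1 macrophage marker, Fcgr3, lower at an unadjusted p under 0.05. Lower means in mutants were found for 6 of 8 ganglion and crest markers and 6 of 11 endothelial markers. The same held for 2 of 6 erythroid, 4 of 7 muscle and 4 of 6 macrophage markers. These sums were not rescaled, and bright genes weigh most in them. Vim, the largest part of the progenitor sum, gave 10734 to 11233 in mutants and 11404 to 11718 in wild type. Isl1, the largest part of the motor neuron sum, gave 1459 to 1583 in mutants and 1552 to 1785 in wild type. Isl1 is also on the list of cranial ganglia and crest and is the largest part of that sum. The sums of both lists are therefore not separate observations. Median intensities of the arrays were 214, 191 and 187 in mutants and 204, 208 and 204 in wild type. Of all single probe sets, 7.08% lay apart with mutants lower. The part of any of these cells in the lower Slit1 and Slit3 signals was not tested.

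Beyond the chosen genes, 39 of 51 further genes of the same pathways were measured, in 4 groups. At an unadjusted p under 0.05, 3 were lower in mutants and 0 higher, against 3.75% and 1.70% of all genes by their brightest probe set, and 0 passed a limma adjusted p of 0.05. Without wild-type replicates 2 and 3 the count of 3 became 0. The median log2 difference of the 39 was -0.10.

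All 5 other ligands had a lower mean in mutants, against 54.5% of all genes, but Ntn3 differed by only -0.00015 and 2 of the 5 lay below background. Of the 5, 1 reached an unadjusted p under 0.05. This was Nell2, which encodes a secreted protein that repels commissural axons through Robo3. Its brighter probe set, 1423561_at, gave 144, 159 and 177 in mutants and 225, 301 and 325 in wild type. The groups did not overlap, and the means were 160.0 ± 16.8 in mutants and 284 ± 52.0 in wild type (SD, n = 3 each). The log2 difference was -0.76 (SE 0.17, 95% interval -1.15 to -0.36), with an unadjusted limma p of 0.00286 and a limma adjusted p of 0.679. The second Nell2 probe set lay below background on all arrays and gives no measure of the difference. Of the other ligands, Ntng1, a membrane-bound netrin relative, had log2 differences of -0.31 and 0.22 with its 2 probe sets (SE 0.24 and 0.17). Ntn4 and Ntng2 were those below background on all arrays.

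The 6 other receptors and partners had a median log2 difference of -0.06 and 0 at an unadjusted p under 0.05. Unc5b, another receptor for netrin repulsion, had -0.21 (SE 0.21), and Robo4, the Robo of endothelial cells, had -0.12 (SE 0.17). Dag1, which encodes dystroglycan, a Slit-binding component of the extracellular matrix receptor, had -0.06 (SE 0.13) with its brightest probe set and between -0.25 and 0.07 with 3 further ones.

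Of 10 genes for Slit-binding proteoglycans, heparan sulfate enzymes and receptor processing, 8 had a lower mean in mutants, against the 54.5% of all genes above, and 1 reached an unadjusted p under 0.05. This was Sdc3, a heparan sulfate proteoglycan of neurons, at 571, 531 and 542 in mutants and 667, 677 and 736 in wild type with its brightest probe set. These values did not overlap, and the log2 difference was -0.33 (SE 0.11, unadjusted limma p 0.0188, limma adjusted p 0.833). The groups overlapped in the other Sdc3 probe sets, with log2 differences of -0.37 (SE 0.19) and -0.49 (SE 0.39). Gpc1, a glypican that binds Slit, had -0.28 (SE 0.16), and Hs6st1, a heparan sulfate sulfotransferase, had -0.23 (SE 0.15).

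Among 18 intracellular effectors, 13 had a lower mean in mutants, with a median log2 difference of -0.12, again against 54.5% of all genes. Vasp, of the Ena/VASP family that extends actin filaments downstream of Dcc and Robo, gave 539, 739 and 647 in mutants and 769, 948 and 962 in wild type. The groups did not overlap, and the log2 difference was -0.47 (SE 0.16, unadjusted limma p 0.0233, limma adjusted p 0.833). Its relative Evl had -0.30 (SE 0.19). Srgap1, a Robo-bound GTPase-activating protein, lay below background on all 6 arrays.

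**Figure D4:**
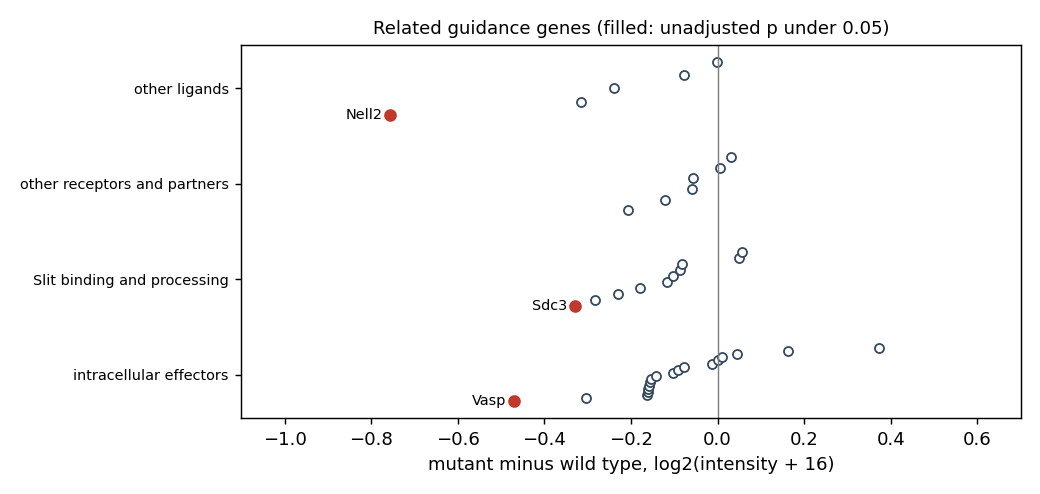
Log2 difference, mutant minus wild type, of 39 related genes in 4 groups, each gene by its brightest probe set. Filled red points with a name reached an unadjusted p under 0.05, which were Nell2, Sdc3 and Vasp, all lower in mutants, and open points did not.

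The genes whose profile over the 6 arrays was most like that of Slit1 were found by the root mean square distance between log2 profiles, each centred on its own mean, among 16117 probe sets of other genes with a group mean above background. The nearest was Tmem45a, at a distance of 0.24 log2 units, followed by Aadac at 0.33, Akirin2 at 0.35, and Csf1 and Rpap1 at 0.36, against a median of 0.83. Tmem45a gave 43.0, 74.4 and 43.0 in mutants and 126, 148 and 116 in wild type, with the second mutant array the highest of its group as in Slit1. Rpap1, above background on all arrays, gave 159, 229 and 189 in mutants and 344, 442 and 369 in wild type. For Aadac, Akirin2 and Csf1 all mutant arrays lay below background. So did wild-type replicate 3 for Akirin2, at 52.7, and wild-type replicate 2 for Csf1, at 58.2. Tmem45a lay below background on mutant replicates 1 and 3. These genes were chosen for their likeness to Slit1, so their differences are a description.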

How the data were processed

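Total RNA of 3 Hoxb1 mutant and 3 wild-type pools was measured on 6 arrays. The deposited table holds 1 linear intensity per probe set and array, and its values show that the authors scaled each array to a 2% trimmed mean of 500.0. Per the submitters' processing notes the tool was affy, with no version, and the expression algorithm and background correction are not stated in the labels. Detection calls were not used. Precision is limited by the number of arrays, with a median standard error of 0.16 on the log2 scale.

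After 64 control probe sets were left out, log2(intensity + 16) was fitted for 22626 probe sets by limma 3.58.1 under R 4.3.3 (lmFit, then eBayes with no trend, 2-sided, without covariates), and p-values were adjusted over all of them by Benjamini-Hochberg. The step was tested on simulated data with added changes larger than any member difference. That test therefore does not show how well changes of the size reported here are detected. The 95th percentile of 27 bacterial control probe sets served as background. Where all arrays of 1 group lay at or below it, a fold is a bound, computed on log2 means with values below it set to it. Such a bound allows for dim signal and not for the spread between arrays. Gene names came from the platform annotation, and the brightest probe set stood for a gene in lists. The named genes were Hoxb1, all probe sets of the members, up to 3 genes of smallest p in each related list, and the 5 genes nearest to Slit1. The genes and lists were chosen with earlier results of these data known. Alternatives were quantile normalization, median centring, a filter on dim probe sets, pseudocounts of 1 and 64, other eBayes settings, array weights, a replicate block, an 18S covariate and leaving out arrays.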

Additional observations from a re-analysis of the deposited data

How the results depend on the processing

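No probe set of the 9 genes passed an adjusted limma p of 0.05 under any of the 16 alternatives to the fit, of which leaving out both wild-type arrays of high 18S signal was chosen after seeing the data. Slit1 had an adjusted limma p of 0.362 to 0.865 and Slit3 one of 0.522 to 1.00. The number of the 12 probe sets lower at an unadjusted p under 0.05, which was 2, became 1 with the 18S covariate, 1 without both wild-type arrays of high 18S signal, 1 at a threshold of 0.01 and 0 with the dimmest 33.3% left out, where Slit1 and Slit3 were not among those tested. It ran from 1 to 3 when single arrays were left out, with 1 without wild-type replicate 2. It was 3 with array weights and without mutant replicate 1, through Ntn1 1422987_at (unadjusted limma p 0.0329 and 0.0265). It was also 3 without wild-type replicate 1, through Ntn1 1454974_at (0.0475). The share of all probe sets lower at this threshold moved as well, from 3.88% with the settings used here. It was 6.40% with array weights, 6.51% without mutant replicate 1 and 3.99% without wild-type replicate 1. With the 18S covariate it was 2.20%, and without wild-type replicate 2 it was 2.88%. The ligand median, -0.81, was -0.13 with the dimmest 33.3% left out, over Slit2 and Ntn1 alone, -0.55 with a pseudocount of 64, -0.49 with the 18S covariate and -0.43 without both of those arrays. The receptor median, -0.057, moved by less than the spread between arrays, to 0.0094 with the 18S covariate, and leaving out single arrays gave -0.17 to 0.059. The 3 related genes lower at an unadjusted p under 0.05 became 1 with median centring, 1 with the 18S covariate, 0 without both of those arrays, and 1 to 4 without single arrays, with 1 without wild-type replicate 3. These alternatives for the related genes were added after seeing the data.

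Signs turned for Slit2, Dcc, Robo1 and 1 of the Unc5c probe sets. Slit2 1424659_at gave -0.018 with array weights, -0.098 with the 18S covariate, -0.096 without both wild-type arrays of high 18S signal, and -0.11 to 0.074 without single arrays. Dcc gave 0.0094 with the 18S covariate and -0.17 to 0.059 without single arrays. Without single arrays Slit2 1451430_at ran from -0.031 to 0.34, Unc5c 1419592_at from -0.071 to 0.20 and Robo1 from -0.017 to 0.29. The sample titles give mutant and wild-type arrays of the same replicate number a matching code, whose meaning is not stated. Deviations of such arrays correlated at 0.053, -0.017 and 0.045, and 2 of the 3 mutant arrays correlated best with their own number. With 3 arrays per group, these values cannot decide whether arrays of the same number share more than the number. With a replicate block the count of member probe sets was 2, and Slit1 had -1.51 with an adjusted limma p of 0.770.

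Over all probe sets 0 passed the adjusted threshold, against 2 with the dimmest 33.3% left out, 3 with quantile normalization, 3 with trend and robust settings, and 4 each with median centring and array weights. The 1303 probe sets at an unadjusted p under 0.05 became 1975 without mutant replicate 1 and 2093 with array weights. Signal near background limits Slit1, Slit3 and Robo3.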
